A study of Mus musculus with 30 samples.

Results

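In mouse skin, 145 of 308 single-cell barcodes carried more signal from 5 keratins (Krt5, Krt14, Krt15, Krt1 and Krt10) than from 3 fibrillar collagens (Col1a1, Col1a2 and Col3a1). These keratin-dominant barcodes were chosen by their summed values of these genes alone, out of 8282 barcodes in 30 libraries of 8 organs. They were 84 of 158 barcodes in the healthy skin library and 61 of 150 in the library of a mouse with collagen-induced arthritis (CIA). Of epidermal genes that the choice did not use, Lgals7, Sfn, Ly6d and Dmkn were above 0 in every one of the 145, and each was higher in members than in the other barcodes of the same library (Lgals7 at 6142 against 2306 units per 1000000 in the healthy and 5098 against 1637.5 in the CIA library). Presence alone did not set them apart, since the fibroblast gene Dcn was also above 0 in all 145. Lgals3, above 0 in all 145 as well, was at 1571 against 2597 in the healthy and 1254 against 1168 in the CIA library. The basal adhesion list was lower in members than in the other barcodes of both libraries (1983 against 2309 and 1449 against 1652). A smaller set of 14 healthy and 12 CIA barcodes carried sebaceous gland genes, with Krt5 at 0 or 1 unit and no Krt15. That set is described on its own below. Without it, the basal adhesion list of members was at 2284 against 2309 in the healthy and 1888 against 1652 in the CIA library.

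The healthy library came from the male DBA1/J mouse H6, which had been injected with PBS and had an arthritis score of 0. The CIA library came from the male DBA1/J mouse S1, which had been given 100 µg of bovine collagen II in complete Freund's adjuvant at the tail base, with a booster in incomplete adjuvant on day 20, and had a summed limb score of 8. In both, skin was frozen and thawed, minced and digested with collagenase I and DNase I, so the pieces of skin and the layers they held were not recorded per barcode. Cells were captured by Seq-Well, in which each cell shares a small well with a barcoded bead that binds poly(A) tails. The healthy library's title ends in CIA and the arthritic mouse's in 2CIA, and this possible batch and the disease state cannot be told apart. With 1 mouse per state there is no replicate, so the values below describe 2 libraries and carry no test.

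The epidermis renews itself from a basal layer that holds to the basement membrane through integrins and collagen XVII and makes Krt5 and Krt14. Cells that leave this layer switch to Krt1 and Krt10 in the spinous layers, then make filaggrin, loricrin and involucrin in the granular layer, and end as the cornified envelope. Krt15 marks basal cells and the hair follicle bulge. The follicle adds an outer root sheath, an infundibulum with Krt79, an inner root sheath and the hair shaft, and the sebaceous gland beside it fills its cells with lipid made by enzymes such as Scd1, Fasn and Elovl family members. CIA is an arthritis model, and skin away from the injection site is not its main target.

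Before the values, the DNA ahead of 3 keratin genes is shown, since Krt5, Krt10 and Krt79 represent the basal, suprabasal and infundibular programmes that the barcodes were read for. Each line gives the 250 bases before the start site that the RefSeq promoter table uses in GRCm38.p6, 5′ to 3′. The Krt5 and Krt79 windows lie next to the end of the gene's span, while the RefSeq span of Krt10 runs on to position 99397449, so its window lies inside that span. Capitals mark matches on either strand to any of 4 motifs, and matches may overlap. The TATA box was searched as TATAAA. The AP-2 element was searched as GCCNNNGGC. The box that KLF factors bind, the CACCC box, was searched as CCACCC. The AP-1 element was searched as TGANTCA.
Krt5, chr15:101712906-101713155, minus strand: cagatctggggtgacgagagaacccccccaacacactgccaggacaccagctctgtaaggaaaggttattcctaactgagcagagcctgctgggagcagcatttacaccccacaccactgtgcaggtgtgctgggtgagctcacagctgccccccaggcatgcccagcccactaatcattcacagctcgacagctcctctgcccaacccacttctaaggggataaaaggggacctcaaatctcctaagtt
Krt10, chr11:99389365-99389614, minus strand: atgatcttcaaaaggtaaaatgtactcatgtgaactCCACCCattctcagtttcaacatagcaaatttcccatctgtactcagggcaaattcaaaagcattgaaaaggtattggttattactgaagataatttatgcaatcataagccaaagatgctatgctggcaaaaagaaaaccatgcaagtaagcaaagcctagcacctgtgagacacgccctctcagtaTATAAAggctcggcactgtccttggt
Krt79, chr15:101940325-101940574, minus strand: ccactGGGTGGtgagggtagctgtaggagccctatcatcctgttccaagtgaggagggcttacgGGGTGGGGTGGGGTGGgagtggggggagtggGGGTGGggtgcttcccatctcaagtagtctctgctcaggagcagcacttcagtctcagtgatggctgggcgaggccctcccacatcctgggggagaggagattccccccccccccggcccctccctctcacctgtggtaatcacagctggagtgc
The Krt10 window held TATAAA at −26 to −21 and CCACCC at −214 to −209 from the start, and the Krt79 window held 5 matches to the CACCC box, all as GGGTGG. The Krt5 window held no match to any of the 4. Of 32851 such windows in the table, 12.4% held TATAAA, 6.75% the AP-1 element, 13.7% the AP-2 element and 28.1% the CACCC box. Such matches are common and are given as a description of the sequence.

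The deposited values are whole-number sums over a barcode and its nearest neighbours, made by the authors' smoothing, and are called units here. Many barcodes shared every value with another: the 84 healthy members held 37 distinct profiles and the 61 CIA members 34. A member barcode held 6721 to 21643 units in the healthy library (median 12815) and 5950 to 19512 in the CIA library (median 9612). Levels are summed units per 1000000 of the member barcodes' units (UPM). Of the member barcodes, 2 sequences occurred in both skin libraries, and in all 2 healthy and 4 CIA members had a sequence that also occurred in another library.

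By barcode, members were 53.2% of the healthy library (exact 95% binomial interval 45.1 to 61.1) and 40.7% of the CIA library (32.7 to 49.0). The intervals cover counting error only and treat barcodes with shared profiles as separate. Counted by distinct profile the shares were 54.4% and 54.8%, so the difference in the barcode shares came with how often a profile was repeated. With Krt15 left out of the rule they were 43.7% and 37.3%. The rule cut through a continuous range: 3 healthy members with 18 keratin units and 1 CIA member with 22 were inside by 1 unit. Just outside stood 1 healthy barcode with 6 keratin units, 1 short of its collagen units, and 2 CIA barcodes with 5 and 7 units in which both sums were equal. Keratins above 10 times the collagens were found in 39 healthy and 14 CIA members.

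**Figure D1:**
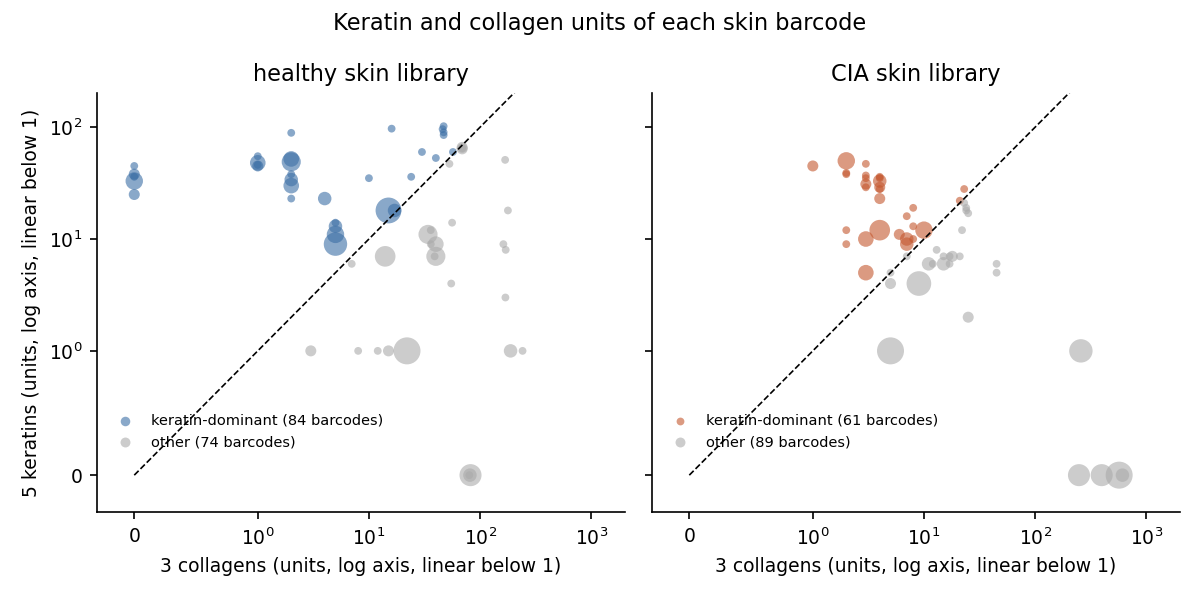
Units of the 5 keratins (vertical) against units of the 3 collagens (horizontal) for each skin barcode, both on log axes that are linear below 1, with area for the number of barcodes at a point and a dashed line where the sums are equal. The 84 healthy and 61 CIA members lie above the line, and some lie within 1 unit of it.

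The keratins that define the barcodes were a small part of their RNA. The 5 keratins made up 0.254% of the units of healthy members and 0.203% of those of CIA members, while the 3 collagens made up 0.0651% and 0.0467%. Outside the members, the collagens made up 0.607% of the units of the other healthy skin barcodes and 2.21% of those of the other CIA skin barcodes. The lowest, median and highest keratin sum of a member were 9, 31.5 and 102 units in the healthy library and 5, 12 and 50 in the CIA library. The 2 ranges overlap, and 18 healthy and 32 CIA members had fewer than 15 keratin units.

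Of the keratins that chose the barcodes, Krt14 was the most widely present. Krt14, the type I keratin of the basal layer (chromosome 11), was above 0 in all 84 healthy and all 61 CIA members. Its level was 1113 UPM in the healthy and 956 UPM in the CIA library, with barcodes between 324.6 and 2565 UPM (median 1110) and between 147 and 2249 UPM (median 930.5). Krt5, its type II partner (chromosome 15), was above 0 in 70 healthy and 58 CIA members, at 880.4 and 849 UPM. The healthy barcodes ran from 0 to 2305 UPM with a median of 908, and the CIA barcodes from 0 to 2913 UPM with a median of 335.5. The libraries thus had close Krt5 levels over all members, while the CIA barcodes were spread more widely, with a lower median and a higher maximum. Without the smaller set that carried sebaceous gland genes, Krt5 was at 1049.5 and 1281 UPM and Krt14 at 1182 and 1167 UPM. Krt15 was at 210.5 and 147 UPM, above 0 in 70 healthy and 44 CIA members.

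Over all members both suprabasal keratins were lower in the CIA library. Krt10 was at 274 UPM in the healthy and 43.9 UPM in the CIA library, a log2 difference of −2.40 on the UPM + 10 scale, and had units in 69 of 84 healthy against 15 of 61 CIA members. Krt1, its partner, was at 66.9 and 33.3 UPM (−0.83) and above 0 in 43 and 15 members. Krt1 and Krt10 together made up 13.4% of the 5 keratins' units in the healthy library and 3.80% in the CIA library. Per barcode this share ran from 0 to 50% (median 8.70%) and from 0 to 40% (median 0), and in 0 members of either library did Krt1 and Krt10 exceed the other 3 keratins. These 5 keratins chose the barcodes, so their proportions are a description only.

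The Krt10 of the healthy library was not spread evenly. In 8 healthy members Krt10 reached 12 to 17 units, and these barcodes also held 16 to 57 collagen units, against a median of 4.5 collagen units over all healthy members. No CIA member had 10 or more Krt10 units, and the highest had 3. Among members whose keratins were above 10 times the collagens, the Krt10 difference was −1.08 and that of Krt1 was 0.95, while Krt5, Krt14 and Krt15 differed by 1.08, 0.40 and 0.14, so the sign for each of the 5 but Krt10 depends on which barcodes are taken. The suprabasal share there was 9.64% and 4.01%.

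**Figure D2:**
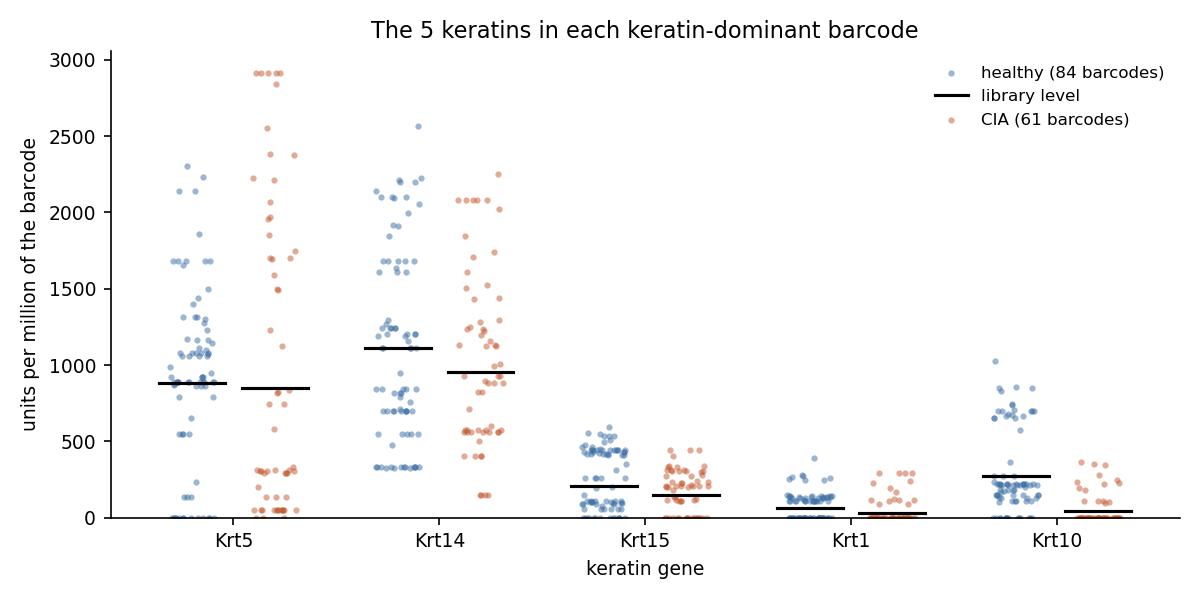
Level of each of the 5 keratins in every keratin-dominant barcode (units per 1000000 of the barcode), with healthy barcodes in blue, CIA barcodes in orange and a black bar at the level of the whole library. Krt5 and Krt14 overlap widely between the libraries, and Krt10 reaches 1026 UPM in a healthy barcode and 365 UPM in a CIA barcode.

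A set of members stood apart by its sebaceous genes. The sebaceous list (18 of 19 listed genes had a row) summed to 42612 to 42919 UPM in 14 healthy members and to 30853 to 31248 UPM in 12 CIA members, but to at most 3566 and 2359 UPM in the others. A minimum of 10000 UPM, placed in this gap after the values were seen, separates them, and they are called sebaceous-rich. They held 2 distinct profiles in each library, so they amount to few independent measurements. Their keratin sum was 9 to 11 units in the healthy and 12 in the CIA library, almost all of it Krt14 (9 to 11 units and 11 units), with Krt5 at 0 and at 1 unit and Krt15, Krt1 and Krt10 listed at 0. They were 16.7% of the healthy and 19.7% of the CIA members. A further 10 CIA barcodes with 1 shared profile reached 14518 UPM of the same list but held 4 keratin against 9 collagen units, so the rule left them out.

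**Figure D3:**
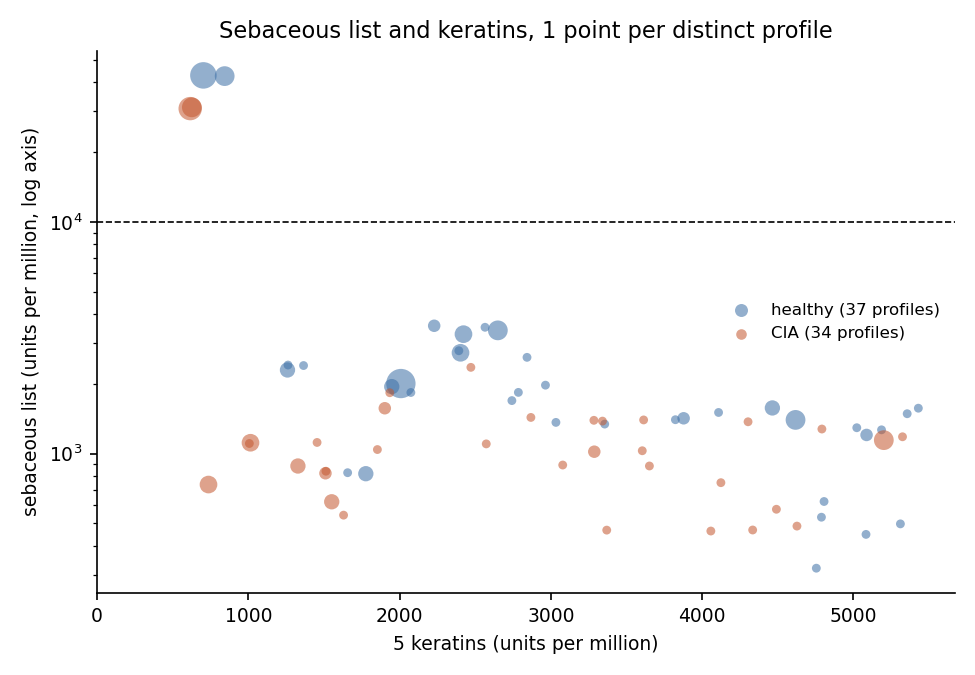
Sebaceous list (log axis) against the 5 keratins, both in units per 1000000, with 1 point per distinct profile of the member barcodes and area for the number of barcodes that share it. The sebaceous-rich profiles lie between 30853 and 42919 UPM, above the dashed line at 10000 UPM, and the other members lie at or below 3566 UPM.

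Within the sebaceous-rich barcodes the lipid genes were high in both libraries. Scd1, a stearoyl-CoA desaturase, was at 9437 UPM in the healthy and 7628 UPM in the CIA barcodes, and Mgst1, a microsomal glutathione transferase abundant in sebocytes, at 11530 and 12451 UPM. Elovl6, which lengthens saturated and monounsaturated fatty acids, was at 8168 and 2375 UPM, and Fa2h, which 2-hydroxylates fatty acids, at 3229 and 1239 UPM. Elovl4, which makes the very long chains of barrier lipids, went the other way, at 410 and 2375 UPM. Krt79, the keratin of the infundibulum and the sebaceous duct, was at 1551 and 723 UPM. The β-defensins Defb7, Defb5 and Defb8 were among the 12 leading genes of the healthy sebaceous-rich barcodes, at 7504, 6014 and 8119 UPM. With 2 profiles per library these values have no spread to be set against.

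Differences of at least 2-fold between the libraries were then counted over all genes, with and without these barcodes. The filter on low values, a mean over both libraries of 50 UPM or more, kept 3358 genes, and 427 of them were at least 2-fold higher in the CIA library (12.7%) and 463 at least 2-fold lower (13.8%), on the log2(UPM + 10) scale. The median difference was −0.0039. Without the sebaceous-rich barcodes, 513 of 3292 genes were higher (15.6%) and 555 lower (16.9%). Of the 427 higher genes 287 were also called without them (67.2% of the 427 and 55.9% of the 513), as were 334 of the 463 lower genes (72.1% of the 463 and 60.2% of the 555). These shares are the background for every list below, direction by direction.

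The basal adhesion list was 1.37-fold lower in the CIA library. Its sum was 1983 UPM in the healthy and 1449 UPM in the CIA library. Of 18 listed genes 7 passed the filter, 3 of them 2-fold lower and 0 higher. Without the sebaceous-rich barcodes the sum was at 2284 and 1888 UPM (1.21-fold), and 3 of 8 genes past the filter were lower and 0 higher. Col17a1, the hemidesmosomal collagen XVII, was at 303 and 68.1 UPM, and had units in 75 healthy and 24 CIA members. Itga6, the integrin α6 chain of the hemidesmosome, was at 196 and 86.2 UPM (−1.10). Cav1, the caveolar coat protein, was at 103.5 and 18.2 UPM (−2.01). Itgb1 was at 508 and 522 UPM and Cd44 at 433 and 404 UPM, so these more general adhesion genes lay close. Trp63, the transcription factor p63 of basal cells, was at 87.4 and 124 UPM, but at 89.3 and 67.7 UPM without the sebaceous-rich barcodes.

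The spinous list had the largest sum of the epidermal lists and was 1.52-fold lower in the CIA library, at 19297 and 12688 UPM. On the log2 scale this was −0.60, against −0.37 with keratins above 10 times the collagens and −0.39 with at least 15 keratin units. Barcodes ran from 10249 to 29455 UPM (quartiles 12912 and 24494) in the healthy and from 6541 to 20823 UPM (quartiles 8783 and 16294) in the CIA library, so the ranges overlap. Of 10 genes past the filter, 4 were 2-fold lower and 0 higher. Krtdap, a small secreted protein of differentiating keratinocytes, was at 3541 and 1257 UPM (−1.49), with barcode medians of 3682 and 1014 UPM. Its difference was −0.65 among members with keratins above 10 times the collagens and −0.69 among those with at least 15 keratin units, both under 2-fold. Sfn, the 14-3-3σ protein, was at 3133 and 1496 UPM (−1.06), Mt4, the metallothionein of stratified epithelia, at 131 and 10.6 UPM (−2.78), and Sbsn at 90.1 and 18.2 UPM (−1.83).

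Other spinous genes lay closer. Lgals7, the keratinocyte galectin, was at 6142 and 5098 UPM and was above 0 in every member. Ly6d was at 2641 and 1525 UPM (−0.79), Lgals3 at 1571 and 1254 UPM, and Dmkn at 715 and 731 UPM. Fabp5, a fatty acid carrier, was at 968 and 1129 UPM, with 90.7% and 95.6% of its units in the sebaceous-rich barcodes. Without those barcodes the list sum was at 20666 and 13425 UPM (1.54-fold), but 2 of 9 genes past the filter were 2-fold lower, near the background. Sbsn then did not pass the filter, since all of its CIA units and 41.6% of its healthy units lay in the sebaceous-rich barcodes. In the other members Krtdap was at 4192 and 1911 UPM (−1.13) and Sfn, at 3719 and 2123 UPM, differed by −0.81. Outside the members the same list summed to 8283 UPM in healthy and 4491 UPM in CIA skin barcodes, so it was lower in the CIA library there as well.

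Cell-cell adhesion genes were 1.57-fold lower in the CIA library, at 3205 and 2047 UPM, with 2 of 9 genes past the filter 2-fold lower and 0 higher, a count near the background. Gja1, the gap junction protein connexin 43, was at 644 and 256 UPM (−1.30). Cdh1, E-cadherin, was at 298 and 122.5 UPM (−1.22). Cldn1, a claudin of tight junctions, was at 197 and 174 UPM. Perp and Cldn4 were at 681.5 and 545 UPM and at 607 and 407 UPM, and the desmosomal plaque gene Dsp, desmoplakin, at 153 and 175.5 UPM. Without the sebaceous-rich barcodes Cdh1 differed by −0.88 and Gja1 by −1.74, so 1 of 9 genes was 2-fold lower. With at least 15 keratin units Cdh1 differed by −0.62.

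Most genes of the granular and cornified list were low or listed at 0 in both libraries, with 13 above 0 in members. Of 38 listed genes 24 had a row, and Flg, Lor, Ivl, Hrnr, Rptn, Tgm1 and Cdsn were among 11 listed at 0 in all members. Klk7, a protease that sheds corneocytes, was at 50.0 UPM in the healthy library and listed at 0 in the CIA library. The list summed to 320 and 918 UPM, but this 2.87-fold higher value in the CIA library was Elovl4, at 82.1 and 835 UPM (3.20) and the only listed gene past the filter. All CIA barcodes with Elovl4 were sebaceous-rich, with 46 units in each. Without them the list was at 288 and 44.3 UPM, lower in the CIA library, and 0 of its genes passed the filter.

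Hair follicle genes were spread over many members. The outer sheath and bulge list was at 4299 and 3340 UPM, and at 4444 and 4256 UPM without the sebaceous-rich barcodes. Its direction depended on the barcodes taken: the log2 difference of the sum was −0.36 over all members, 0.21 with keratins above 10 times the collagens and 0.13 with at least 15 keratin units. Sox9, a transcription factor of the outer root sheath and bulge, was at 728 and 629 UPM and above 0 in 84 of 84 and 57 of 61 members. Plet1, a surface protein of the upper follicle, was at 800.1 and 761 UPM, and Aqp3, an aquaglyceroporin of keratinocytes, at 601 and 436 UPM. Fst, the activin-binding follistatin, was at 456 and 237.5 UPM (−0.91).

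Of 12 outer-sheath genes past the filter, 2 were 2-fold higher and 2 lower in the CIA library, which is near the background, and without the sebaceous-rich barcodes 3 were higher and 3 lower. Postn, the matrix protein periostin, was at 44.6 and 162 UPM (1.65), and Runx1, a transcription factor, at 34.8 and 109 UPM (1.41). Ptn, the growth factor pleiotrophin, was at 417 and 160.4 UPM (−1.32), and Defb6, a β-defensin, at 155 and 54.5 UPM (−1.36). Krt17 was at 268 and 142 UPM (−0.87), above 0 in 84 of 84 healthy and 40 of 61 CIA members. The stem-cell genes Lrig1 and Nfatc1 were at 60.7 and 65.1 UPM in the healthy and listed at 0 in the CIA members, below the mean that the filter asked for. Lhx2 and Lgr6, which also mark follicle stem cells, were listed at 0 in the healthy and at 48.4 and 12.1 UPM in the CIA members, likewise below the filter. Lgr5, Krt75 and Tbx1 were listed at 0 in both.

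Krt79 was far higher in the sebaceous-rich barcodes than in the others (1551 against 126.5 UPM in the healthy and 723 against 32.7 UPM in the CIA library), and was lower in the CIA library in both sets. It was above 0 in 32 healthy and 26 CIA members, of which 14 and 12 were sebaceous-rich. Over all members it was at 356 and 275 UPM (−0.36), and outside the sebaceous-rich barcodes the log2 difference was −1.68.

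Inner root sheath and hair shaft genes were few, with a list sum that was higher in the CIA library, at 248 and 410.0 UPM (1.65-fold). Of 38 listed genes 27 had a row and 16 of those were listed at 0 in both, the inner-sheath keratins Krt27, Krt28, Krt71 and Krt73 among them. S100a3, a calcium-binding protein of the hair cuticle, was listed at 0 in all healthy skin barcodes and stood at 129 UPM in the CIA members, where 29 of 61 barcodes (16 profiles) had 1 to 5 units. Krt25, Krt35 and Shh were listed at 0 in the healthy and at 39.3, 21.2 and 19.7 UPM in the CIA members. Msx1, Selenbp1 and Msx2 went the other way, at 19.6, 5.35 and 4.46 UPM in the healthy and listed at 0 in the CIA members. Gata3, which acts in the inner sheath and in sebaceous cells, was at 210.5 and 142 UPM (−0.53). Only S100a3 and Gata3 passed the filter, but the list sum also holds the genes below it. Of these, Tchh, at 0.892 and 25.7 UPM, and Dlx3, at 3.57 and 21.2 UPM, were higher in the CIA library too. Without the sebaceous-rich barcodes the list was at 191 and 492 UPM, 2.57-fold higher in the CIA library.

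Over all members the sebaceous list was at 8703 and 11588 UPM, 1.33-fold higher in the CIA library, and outside the sebaceous-rich barcodes it was at 2154 and 1052 UPM, 2.05-fold lower. Of 12 genes past the filter, 1 was 2-fold higher over all members: Scd3, a second desaturase, at 91.0 and 454 UPM (2.20). Outside the sebaceous-rich barcodes 6 genes passed the filter, 0 of them 2-fold higher and 3 lower. Scd1 and Mgst1 were at 1654 and 2737 UPM (0.72) and at 2872 and 4806 UPM (0.74), Elovl6 at 1423 and 835 UPM (−0.76) and Soat1 at 534 and 526.5 UPM. In the other members Scd1 and Mgst1 were at 159.5 and 84.0 UPM (−0.85) and at 1210 and 660.3 UPM (−0.86). Scd1 was thus lower in the CIA library within each set (9437 and 7628 UPM in the sebaceous-rich barcodes), as was the whole list (42808 and 31016 UPM there). The sebaceous-rich barcodes held 16.1% of the healthy and 35.2% of the CIA members' units, so the pooled values weigh them differently. In the members that were not sebaceous-rich, Elovl6, Soat1 and Far2 had units in the healthy library and were listed at 0 in the CIA library.

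**Figure D4:**
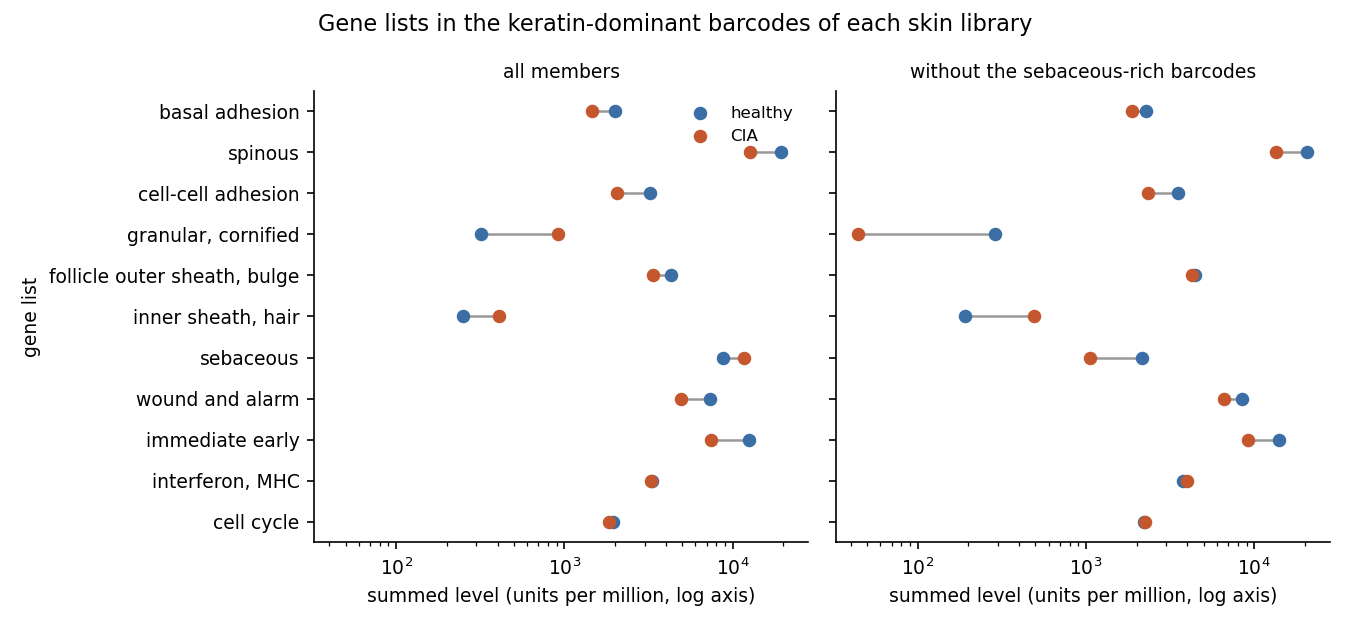
Summed level of each gene list in the healthy (blue) and CIA (orange) members, in units per 1000000 on a log axis, for all members and without the sebaceous-rich barcodes. The granular and sebaceous lists change sides between the panels, as do the nearly level interferon and cell cycle lists, and the spinous list stays lower in the CIA library in both.

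Immediate early and heat shock genes, which cells switch on under stress and during dissociation, were 1.69-fold lower in the CIA library, at 12497 and 7392 UPM. Of 25 genes past the filter 7 were 2-fold lower and 1 higher. Klf4, a Krüppel-like factor that also acts in the epidermal barrier, was at 443 and 104 UPM (−1.99). Fos was at 752 and 280 UPM (−1.39), Atf3 at 877 and 322 UPM (−1.42), Ier2 at 526 and 153 UPM (−1.72) and the small heat shock gene Hspb1 at 282 and 71.1 UPM (−1.85). Gadd45b and Fosb were lower as well (−1.92 and −1.05), and Fosl2 was higher, at 26.8 and 130 UPM (1.93). Fosb, at −0.78, was under 2-fold without the sebaceous-rich barcodes and Egr2 was past it (−1.12, against −0.13 over all members), so 7 of 25 were again lower.

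The most abundant genes of this list were Klf6 at 2561 and 1522 UPM, Junb at 1513 and 855 UPM and Jun at 949 and 830.5 UPM. The list differed with the same sign as the spinous list, and its part in the differences of the epidermal lists was not tested.

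Wound and alarm genes of keratinocytes were at 7336 and 4956 UPM, 1.48-fold lower in the CIA library. Of 18 genes past the filter 5 were 2-fold lower and 2 higher. Il1rn, the interleukin-1 receptor antagonist, was at 156 and 28.7 UPM (−2.10), and Ccl20, a chemokine for CCR6+ cells, at 102 and 10.6 UPM (−2.44). Stfa3, a stefin, was at 368 and 129 UPM (−1.45), Krt16 at 107 and 42.4 UPM (−1.16) and the AP-1 member Fosl1 at 334 and 159 UPM (−1.03). Stfa1, another stefin, was higher, at 90.1 and 212 UPM (1.15), and so was S100a8, at 18.7 and 112 UPM (2.09). Without the sebaceous-rich barcodes 3 of 19 were higher and 4 lower: Krt16 (−0.70) and Fosl1 (−0.57) were under 2-fold, while Krt6a (1.17) and the cornified envelope gene Sprr1a (−1.87) were past it. Over all members Sprr1a was at 250 and 121 UPM (−0.99). Krt6a, the keratin of wounded and companion-layer epithelium, was at 52.6 and 99.9 UPM (0.81). The neutrophil chemokine gene Cxcl1 was at 1733 and 962 UPM (−0.84) and the metallothionein Mt2 at 1624 and 1157 UPM.

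Basal III cells are among the cell types named in the study, and 5 of the 6 genes listed for them here had a row. They summed to 4174 UPM in the healthy and 3330 UPM in the CIA library, and to 4751 and 4620 UPM without the sebaceous-rich barcodes. Fosl1, given above, was the only one of them past 2-fold, and only over all members. The study lists these genes as markers from earlier work, and Krt5 and Krt14 among them chose the barcodes.

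Interferon and antigen presentation genes had like sums, 3329 UPM and 3252.5 UPM. Of 9 genes past the filter 2 were 2-fold higher and 0 lower. Psmb8, an immunoproteasome subunit, was at 42.8 and 145 UPM (1.56), and H2-Ab1, a class II chain, at 55.3 and 135 UPM (1.15). Without the sebaceous-rich barcodes 4 of 11 were higher and 0 lower, with Ifi27 (1.43) and Ifi27l2a (1.53) added. H2-D1 and B2m, of class I, were at 1164 and 752 UPM (−0.62) and at 679.7 and 815 UPM (0.26). Cell cycle genes summed to 1943 and 1828 UPM, with Tubb5, a β-tubulin, at 196 and 523 UPM (1.37) and Ccnd2, cyclin D2, at 346 and 139 UPM (−1.26). Of 9 cell cycle genes past the filter 1 was 2-fold higher and 1 lower, and without the sebaceous-rich barcodes 1 was higher and 3 lower. Mki67 was above 0 in 46 healthy and 14 CIA members.

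**Figure D5:**
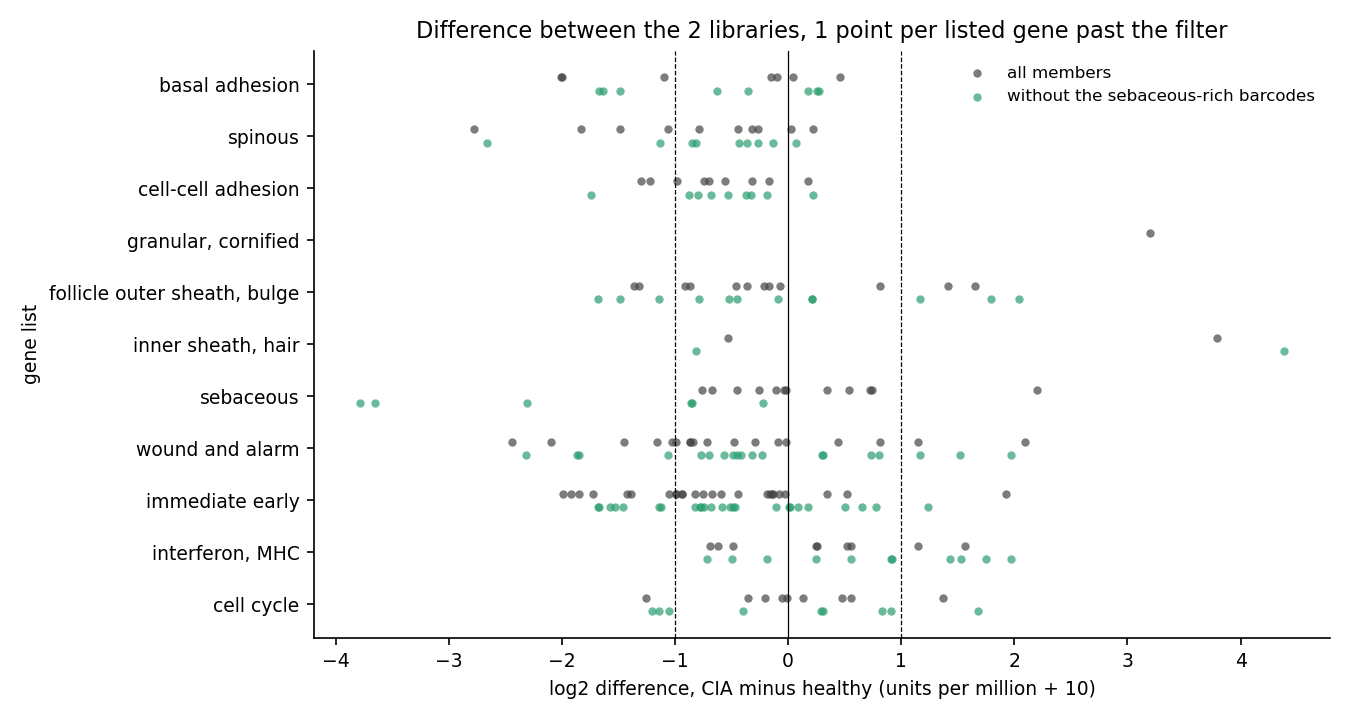
Log2 difference, CIA minus healthy, of each listed gene past the filter, on the units per 1000000 + 10 scale, for all members (grey) and without the sebaceous-rich barcodes (green), with dashed lines at 2-fold. Spinous and cell-cell adhesion genes lie mostly left of 0, between −2.78 and 0.22 over all members.

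Markers of other cells were present in some members. The endothelial list was at 301.5 UPM in the healthy and 31.8 UPM in the CIA library, and ran from 0 to 2092 UPM over the healthy barcodes (median 50.5) and from 0 to 203 UPM over the CIA barcodes (median 0). Pecam1 was above 0 in 17 healthy members, which shared 5 profiles and held 15 to 47 collagen units, and was listed at 0 in all CIA members. The endothelial genes Kdr, Esam, Emcn and Tie1 were listed at 0 in both. The fibroblast list was at 1326 and 1086 UPM in members, against 7640 and 15420 UPM in the other skin barcodes. Dcn, of that list, was at 452 and 399 UPM and above 0 in all 145 members.

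Of 7 melanocyte genes 1 passed the filter, Dct, which was higher in the CIA library. The list was at 37.5 UPM in the healthy and 295 UPM in the CIA library. Dct, which makes melanin precursors, was at 12.5 and 227 UPM (3.40), above 0 in 42 CIA members of 20 profiles and in 14 healthy members, all sebaceous-rich with 1 unit each. Tyr and Mlana, below the filter, were listed at 0 in the healthy and at 22.7 and 39.3 UPM in the CIA members. Mitf, the melanocyte transcription factor, went the other way, at 24.98 UPM in the healthy and 6.05 UPM in the CIA members, also below the filter. Pmel, Tyrp1 and Sox10 were listed at 0 in both. Dct was also at 178 UPM in the other CIA skin barcodes and listed at 0 in the other healthy ones.

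The fibroblast list was at 1427 and 1479 UPM in members that were not sebaceous-rich, so the sums changed sides. The adipocyte list was at 367 and 68.1 UPM, all of it from Fabp4, which the endothelial list also holds, at 174 and 25.7 UPM, and the lipase gene Lpl at 193 and 42.4 UPM, while Adipoq and Plin1 were listed at 0 in both. The neutrophil list was at 30.3 and 160.4 UPM and held S100a8, which is also in the wound list. The macrophage and Langerhans list was at 117 and 129 UPM with Cd207, C1qa and Csf1r at 0 in both. The T cell list was at 64.2 and 95.3 UPM and the red cell list at 13.4 and 59.0 UPM. Smooth muscle and pericyte genes summed to 123 and 19.7 UPM and skeletal muscle genes to 99.9 and 46.9 UPM. Their part in the differences between the libraries was not tested. Smoothing adds a barcode's neighbours to it, so such units need not come from the captured cell.

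The 5 largest differences in each direction over all genes mostly involved a library in which the gene was listed at 0. Lower in the CIA library, Gsta4, a glutathione transferase, was at 153 UPM in the healthy and listed at 0 in the CIA members, as were Dennd2c at 141 UPM, Ppp2r3a at 140.0 UPM and Selp, the endothelial P-selectin, at 139 UPM. Selp was above 0 in 18 healthy members, which held 15 to 47 collagen units. Sfrp1, a secreted Wnt inhibitor, was at 165 and 1.51 UPM (−3.93). Higher in the CIA library, S100a7l2 was at 12.5 and 363 UPM (4.05), and all of it was in the sebaceous-rich barcodes. Pts, a tetrahydrobiopterin synthesis enzyme, was at 4.46 and 216 UPM (3.97), and S100a3, Madd and Sac3d1 were listed at 0 in the healthy and at 129, 119.5 and 115 UPM in the CIA members.

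Without the sebaceous-rich barcodes Pts, S100a3 and Madd stayed among the 5 largest differences on the higher side, and the 5 on the lower side were other genes. Among the members left, Net1, Eri1, Usp7, Id1 and Cdc42ep3 stood at 216, 207, 203, 191 and 186 UPM in the healthy library. Those of the CIA library had them listed at 0. Over all CIA members they were at 18.2 to 36.3 UPM, all of it in the sebaceous-rich barcodes. Id1 encodes an inhibitor of helix-loop-helix factors. Dct and Pts, at 322 and 334 UPM in the CIA members that were not sebaceous-rich, led the higher side. The CIA library had fewer genes above 0 in its members (8771 against 11022), from 661024 units against 1121056, so a value listed at 0 there rests on less signal.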

How the data were processed

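Skin libraries of 1 healthy and 1 CIA mouse were taken from a table of 23013 genes by 8282 barcodes. By the study's methods the authors processed the reads with bcl2fastq 2.19.1, Drop-seq tools 1.12, Picard 2.9.0 and STAR 2.5.3 on GRCm38, filtered cells and smoothed the UMI values over 12 neighbours (knn). The submitters' processing notes name other builds. No coordinates come from the deposited table. The deposited values are therefore a smoothed signal in whole numbers, not counts, and no count model, and no counting interval or detection limit from the units, was used. Exact binomial intervals were given for shares of barcodes only. The methods give an upper limit on transcripts, against duplicates, for the later joint analysis of selected organs. Whether it was applied to this table is not given in the sources used here, and no doublets were called here. Poly(A) tags were not divided by gene length, so levels are compared within a gene.

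Barcodes entered where the 5 keratins summed above the 3 collagens. Units were summed over members, scaled to 1000000, and compared as log2(value + 10) among genes with a mean of at least 50. Past 2-fold means a difference of at least 1. A difference on this scale understates that of low genes. Symbols and coordinates came from a RefSeq GRCm38.p6 table (21404 rows matched, 360 of 394 listed genes had a row), promoter windows from RefSeq. Unnamed rows held 2.87% of member units. The members, lists and tests were chosen with earlier results of these data known. Genes named are the rule's genes, up to 5 of each list by level and listed genes past 2-fold over all members. Some listed genes past it only without the sebaceous-rich barcodes, and the 5 largest differences per direction, were named as well. Dmkn, Dsp, Mitf, genes under the filter or listed at 0, markers of other cells, and those of the sebaceous-rich barcodes were named after their values were seen. Because each state had 1 skin library, differences were not tested. Scaling and profile counting were checked on simulated data. Python 3.11.15, numpy 2.4.6, pandas 2.3.3, scipy 1.17.1 and matplotlib 3.10.9 were used. Alternatives were stricter rules, leaving out Krt15, distinct profiles, barcode means, other scalings, pseudocount 1 and other filters.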

Additional observations from a re-analysis of the deposited data

How the results depend on the processing

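The share of members was lower in both libraries under stricter rules, to 34.8% and 26.7% with keratins above 2 times the collagens and to 24.7% and 9.33% above 10 times, and to 43.7% in the healthy library without Krt15. The difference between the libraries, −12.5 percentage points by barcode, was 0.427 points with each distinct profile counted once, where the CIA share was 54.8%. The granular list, 1.52 higher in the CIA library on the log2 scale, was at 0.21 by distinct profile and 0.71 by barcode mean, and was lower with keratins above 10 times the collagens (−2.17), without the sebaceous-rich barcodes (−2.70) and among members with at least 15 keratin units (−2.45). The sebaceous list, 0.41 higher, was at −1.34, −1.03 and −0.94 under the same 3 settings and at −0.34 by barcode mean. Scd3 (−2.57, −1.95 and −1.99) and Elovl4 (−2.10, −1.54 and −1.57) turned in the same way. The inner-sheath list, 0.73 higher, was at 1.36 without the sebaceous-rich barcodes. Several lower lists lay closer with keratins above 10 times the collagens and with at least 15 keratin units. The spinous list (−0.60) was at −0.37 and −0.39, and the cell-cell adhesion list (−0.65) at −0.36 and −0.34. The wound list (−0.57) was at −0.22 and −0.19, and the basal adhesion list (−0.45) at −0.25 and −0.24. The immediate early list (−0.76) was at −0.58 and −0.74. Genes past 2-fold were 719 higher and 712 lower with keratins above 10 times the collagens, and 2318 and 3219 with no filter on low values.

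The barcode mean changes the weight of each barcode, and the other settings change the barcodes or genes that enter. Why a value moved was not tested. Leaving out the sebaceous-rich barcodes, those under 15 keratin units and those with a sequence in another library was chosen after seeing the data. Of 134 such comparisons of the main results, 113 stayed within the tolerance of 1.5-fold, or the binomial interval for shares. The trimmed-mean scaling was among them, with a shift of −0.09. This tolerance is wider than several of the list differences, so the count does not show that a list kept its difference. The outer-sheath list, at −0.36 over all members, counted as within it at 0.21 and 0.13. No paired analysis was possible because each state had 1 skin library and the result comes from no test. Leaving out a replicate was not possible for the same reason. Depth limits the low genes: Krt1 rests on at most 5 units in a healthy and 2 in a CIA barcode.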

Other observations

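The same rule was met by barcodes of other organs, in most of them through a few units. In thymus 198 of 684 healthy and 163 of 439 CIA barcodes had more keratin than collagen units, with at most 3 keratin units each. In the lymph node of mouse H6 100 of 230 barcodes met it with at most 4 units, and in the lung of mouse S1 50 of 182 with at most 2. Joint of mouse S1 held more, where 14 of 606 barcodes in the library with the suffix 2CIA held 20 to 46 keratin units and 18 to 39 collagen units, numbers of units within the range of the skin members. In healthy joint 1 of 193 barcodes met it, with 9 keratin units.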
